A study of Cloeon viridulum with 15 samples.

Results

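Mayflies are the insects that moult once more after they have wings. The subimago is the first winged stage, with dull wings fringed by hairs, and it sheds its cuticle, wings included, to give the imago, the sexually mature adult, which does not feed. The imago and subimago libraries of the pond mayfly Cloeon viridulum were compared, 3 of each among the 15 libraries of the series, which also holds young larvae, mature larvae and a mixture of stages. Every subimago and imago library was made from whole bodies of 3 males and 3 females, reared indoors from larvae taken in the field, at 22 °C, 60% relative humidity and 16 h of light with 8 h of dark. All groups are the same wild-caught species, with no genetic change and no treatment. The labels do not give the time that passed between the preceding moult and freezing. Libraries were pools of 6 animals, so differences between single animals or between the sexes are not seen. Per the labels, the 3 libraries of a stage were biological replicates.

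The species had no genome in this study, and the unit of counting was the unigene, a transcript sequence assembled from the reads. Unigenes were used where the closest database protein came from an animal, which 17344 of 91881 did, 15002 of them from an arthropod. Of these, 13442 had enough reads to be tested and 3902 did not. A unigene is called here by the name of that closest protein, so the name is borrowed from another species, and several unigenes can be pieces or relatives of a single gene. What each protein does is likewise given from work in other animals.

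An insect makes a new cuticle beneath the old one before each moult. Epidermal cells secrete chitin, a sugar polymer, and structural cuticular proteins, and after the moult phenolic compounds cross-link and darken the layers. The process is timed by pulses of ecdysteroids, the moulting hormones, and its kind is set by juvenile hormone. In the mayfly it is run once in a winged animal whose wings must be drawn out of their own sheath.

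The 6 libraries held between 42017488 and 46642654 reads, and 21.3% to 48.8% of their reads lay in unigenes with no database hit. A single such unigene took 21.5% of the reads of subimago 3 and 18.5% of those of imago 2, but 0.305% of those of subimago 2 and less in the other 3. Reads of protist or fungal best hits made up 0.312% to 0.488%. On the first principal component, with 63.9% of the variance over the 13442 animal-hit unigenes, the 3 subimago libraries lay between -85.1 and -60.6 and the 3 imago libraries between 69.6 and 74.6. Levels are given as CPM (counts per 1e6 reads, after scaling between libraries), and changes as the fitted log2 change of imago minus subimago with its standard error.

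Among animal-hit unigenes, rises outnumbered falls and the falls were deeper. By edgeR's quasi-likelihood test at an adjusted p under 0.05, 1685 of the 13442 tested animal-hit unigenes (12.5%) were higher in the imago and 1357 (10.1%) were lower, 22.6% in either direction. Among all 34131 tested unigenes the order was the other way, with 6.73% higher and 9.26% lower. The median change was 0.85 among those that rose and -1.49 among those that fell, while the median over all tested animal-hit unigenes was 0.04. A change of at least 8-fold was reached by 70 of those that rose (0.521% of those tested) and 337 of those that fell (2.51%). The 3 libraries of each stage did not overlap for 1682 of the rises and 1354 of the falls. Unigenes that pass the test are mostly separated in this way, so these counts add no support. The share over all tested unigenes was not counted. With DESeq2's size factors the split was 2553 higher and 1182 lower, and with library totals alone it was 1584 and 786. Those scalings raised the median change by 0.118 and 0.157, and under them 68.4% and 66.8% of calls were rises, against 55.4%.

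Subimago 1 stood farthest from the imago. Its level was the lowest of the 3 subimago libraries in 81.2% of the unigenes that rose and the highest in 60.1% of those that fell. Without it falls outnumbered rises, with 735 unigenes higher and 892 lower, and without imago 2 the counts were 983 and 986. The number of rises was also over 1.5 times smaller without subimago 2 (1063), imago 1 (905), imago 2 or imago 3 (927), and that of falls without imago 1 (863). Leaving out a library also leaves a test with less power, and no call of the full comparison changed sign in any of these fits. In whole bodies, fewer cells of a type and less RNA per cell cannot be told apart.

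**Figure D1:**
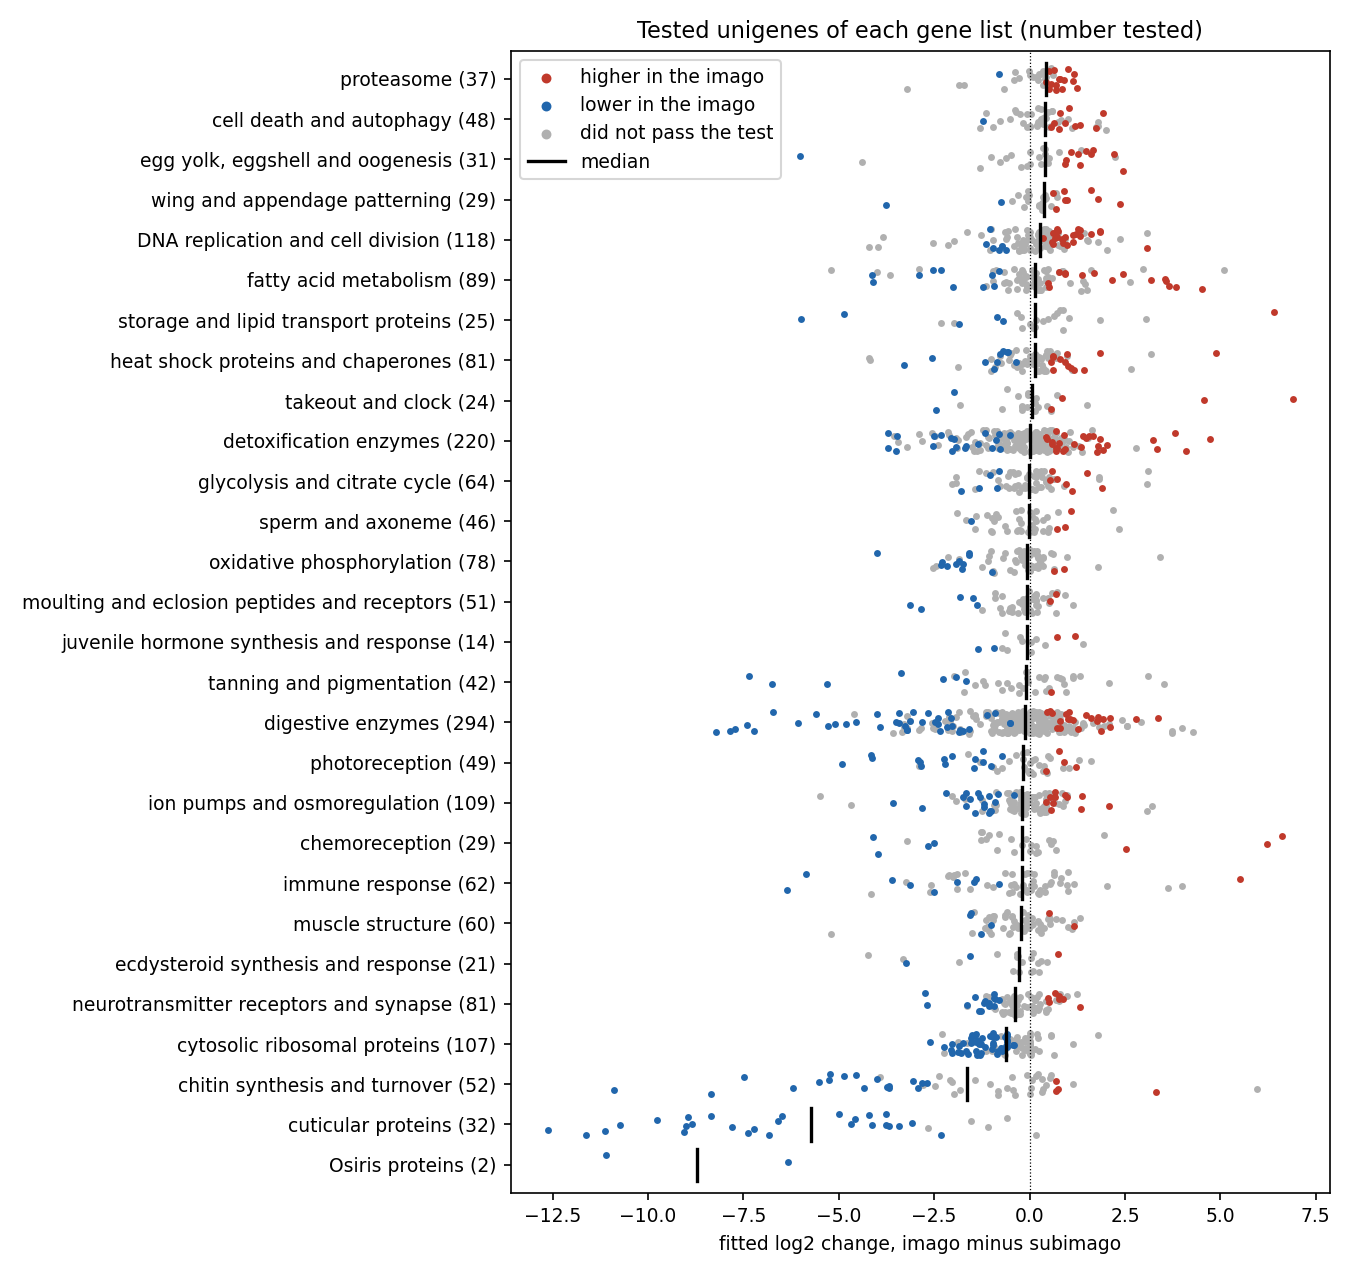
Each point is a tested unigene of a gene list, placed on the horizontal axis by its fitted log2 change (imago minus subimago). Red points were higher and blue points lower in the imago at an adjusted p under 0.05, grey points did not pass, and black bars are list medians. Cuticular proteins have their median at -5.74 and chitin genes at -1.64, while the proteasome list lies at 0.43.

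Genes for cuticular proteins were nearly silent in the imago. Of 43 unigenes with such names 32 were tested, and 27 of these (84.4%, against 10.1% of all tested animal-hit unigenes) fell while none rose. At an unadjusted p under 0.05 the count of rises was likewise 0. The median change of the tested members was -5.74, and the changes of those that fell ran from -12.62 to -2.33. The summed level of the list was 6891, 3648 and 3495 CPM in the 3 subimago libraries and 48.5, 63.5 and 55.6 CPM in the 3 imago libraries. In the larvae it was 1931 to 2016 CPM in the young stage and 627 to 1072 CPM in the mature stage, so of the 4 stages the subimago had the highest sums and the imago the lowest.

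The unigene for Adult-specific cuticular protein ACP-20 (13_Contig_25170), named after a beetle gene of the adult cuticle, stood at 1348, 759.6 and 796 CPM in the subimago and at 0.305, 0.317 and 0.291 CPM in the imago. It changed by -11.62 ± 1.07 (SE, adjusted p = 5.15e-05), a mean level 3179 times lower. It was thus high in the first winged stage and close to absent in the second. Cuticular protein CPR67Bc (13_Contig_1860), a chitin-binding structural protein, went from 475, 342 and 363 CPM to 0.0954, 0.212 and 0.213 CPM. A further unigene, Cuticle protein (13_Contig_2062), had 1541 CPM in subimago 1, against 616 and 594 CPM in the others, and 1.28, 2.35 and 1.76 CPM in the imago. Subimago 1 was the highest library for each of these 3. That no imago library overlapped a subimago library was a condition for naming them among the steepest falls.

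Cuticle protein 19 (13_Contig_301) was counted by 7654 reads over the subimago libraries and by 1 read over the imago libraries, a ratio of 8774 with an exact 95% interval of 1574 to 346593 for counting error only. Pupal cuticle protein (13_Contig_826) changed by -8.84 ± 0.83 and CPAP1-G (13_Contig_942), a chitin-binding protein of the peritrophin type, by -8.36 ± 0.91. Pro-resilin, the precursor of the rubber-like protein of wing hinges and jumping legs, was present among those that fell as 3 unigenes, with changes of -3.77, -3.07 and -2.33. The last of these (13_Contig_23540) did not pass without subimago 1, imago 1 or imago 3, or with library totals alone. CPAP1-B (13_Contig_5685) was among the 5 members that did not pass, with 25.4, 18.4 and 14.9 CPM in the subimago and 12.1, 13.7 and 13.0 CPM in the imago.

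Osiris proteins are insect membrane proteins of cuticle-secreting cells, needed in flies for fine structures of the cuticle surface. Osiris 7 (13_Contig_655) had 5313, 2293 and 3028 CPM in the subimago and fell to 2.10, 1.78 and 0.930 CPM in the imago (-11.11 ± 1.28, adjusted p = 0.000185). In the mature larva it ranged from 616 to 4011 CPM. The other unigene, Osiris 16-like protein (13_Contig_16540), averaged 34.8 CPM in young larvae and was low in both winged stages. It had 1.83, 0.973 and 0.969 CPM in the subimago, and was counted by 169 reads over the subimago and 2 reads over the imago libraries, a ratio of 96.9 with an exact 95% interval of 26.4 to 806. Its fall had an adjusted p of 0.0173 and did not pass without subimago 1 or without any 1 of the imago libraries.

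Some chitin genes fell, on both the building and the digesting side. Of 72 unigenes 52 were tested, with a median of -1.64. Of these, 18 fell and 4 rose (34.6% and 7.69%, against the background of 10.1% and 12.5%). Their summed level was 3569, 2428 and 2574 CPM in the subimago and 946, 971 and 874 CPM in the imago. CPAP1-G and CPAP1-H are counted in this list as well as among the cuticular proteins. On the building side, Glucosamine--fructose-6-phosphate aminotransferase (13_Contig_1672), which makes the first precursor of the pathway, fell from 256, 179 and 199.9 CPM to 3.11, 3.17 and 2.38 CPM (-6.19 ± 0.57, adjusted p = 5.55e-05). Chitin synthase (13_Contig_2861), which polymerises the sugar, went from 159.8, 101 and 95.4 CPM to 4.14, 6.47 and 4.67 CPM (-4.54 ± 0.26, adjusted p = 5.66e-06).

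Of the enzymes that digest chitin, some fell and 1 rose steeply. Putative chitinase 3 (13_Contig_1449) fell from 344, 233 and 236 CPM to 19.6, 23.9 and 19.9 CPM, and Chitinase-3-like protein 3 (13_Contig_5750) from 188, 131 and 116 CPM to 0.840, 0.719 and 0.872 CPM. Chitinase (13_Contig_914) ran the other way, from 43.8, 19.4 and 18.5 CPM to 288, 306 and 219 CPM (3.31 ± 0.72, adjusted p = 0.00889, and 0.0828 without subimago 3 and imago 2 together). Its levels in young and mature larvae averaged 809 and 526 CPM, so the subimago was the stage in which it was low. The other 3 members that rose were 2 hexosaminidase domain proteins and an endo-beta-N-acetylglucosaminidase, with changes of 0.68 to 0.74. When subimago 1, subimago 2 or any imago library was left out, 1 of the list rose. A chitin-binding protein, peritrophin-a (13_Contig_4094), went from 189, 159.8 and 187 CPM to 0.134, 0.0846 and 0.0581 CPM. Peritrophins are known from the gut lining as well as from the cuticle, and in whole bodies these sources cannot be told apart.

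Of 61 tanning and pigmentation unigenes 42 were tested, and 7 fell and 1 rose. These are 16.7% and 2.38%, against 10.1% and 12.5% of all tested animal-hit unigenes, with a median of -0.08. Without subimago 3 and imago 2 together 3 fell. Laccase 2 (13_Contig_2049), the oxidase that tans insect cuticle, had 988, 626 and 737 CPM in the subimago and 80.1, 91.6 and 55.8 CPM in the imago (-3.37 ± 0.74, adjusted p = 0.00948). Its adjusted p was 0.0539 without imago 3 and 0.0668 without subimago 3 and imago 2 together. Protein yellow (13_Contig_1572), a member of the family required for dark pigment in flies, fell from 241, 109.6 and 73.1 CPM to 1.36, 1.40 and 1.20 CPM. Aromatic-L-amino-acid decarboxylase (13_Contig_1393), which makes dopamine for the tanning quinones, fell from 76.5, 42.1 and 42.6 CPM to 1.64, 1.27 and 1.12 CPM.

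A phenoloxidase changed in the opposite direction. Pro-phenol oxidase subunit 2 (13_Contig_5595), an enzyme of wound and immune melanin, rose from 1.07, 0.933 and 0.997 CPM to 15.3, 31.9 and 28.2 CPM (4.65 ± 0.55, adjusted p = 0.000203). It averaged 66.4 CPM in young larvae.

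**Figure D2:**
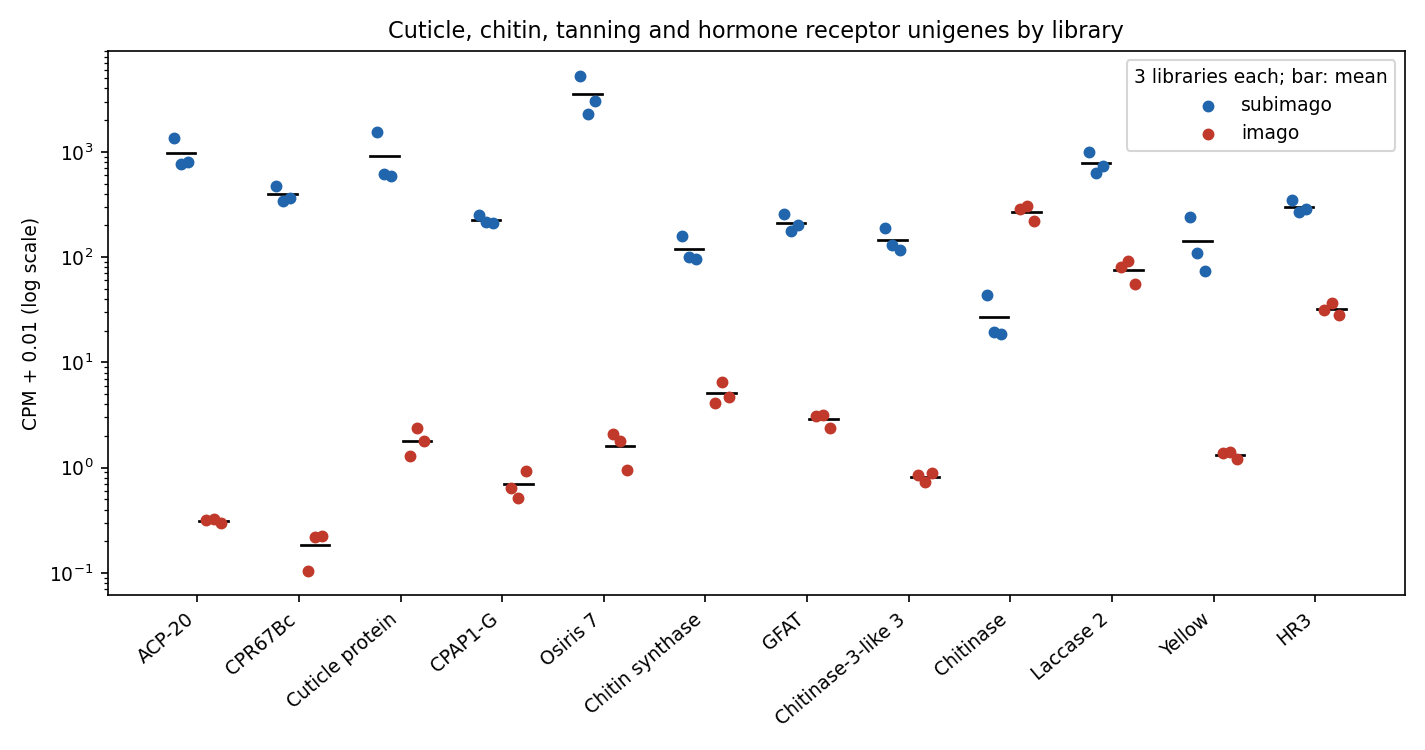
Levels of 12 unigenes in each subimago (blue) and imago (red) library, as CPM + 0.01 on a log scale, with black bars at the stage means; GFAT is Glucosamine--fructose-6-phosphate aminotransferase. The 12 were picked from unigenes that passed the test, some on condition that their stages did not overlap. The lack of overlap in all 12 therefore adds no support. Chitinase is the unigene that is higher in the imago.

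Of 27 unigenes for ecdysteroid synthesis and response 21 were tested, 2 fell and 1 rose (9.52% and 4.76%, against the background of 10.1% and 12.5%), with a median of -0.27. The nuclear receptor HR3 (13_Contig_1820), which ecdysteroids induce and which in turn acts on the next genes of the cascade, had 349, 268 and 284 CPM in the subimago and 31.1, 36.3 and 28.4 CPM in the imago (-3.23 ± 0.57, adjusted p = 0.0025). It ranged from 253 to 1165 CPM in mature larvae, and the imago was its lowest stage. FTZ-F1 (13_Contig_7794), a nuclear receptor that follows HR3 in flies, had 317, 202 and 195 CPM in the subimago and 67.5, 65.0 and 66.5 CPM in the imago. Its libraries did not overlap between the stages, but the change of -1.84 ± 0.76 did not pass (adjusted p = 0.134). Within the 6 libraries alone it did (adjusted p = 0.000653), and its 3 mature larva libraries spread from 54.5 to 703 CPM.

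Retinoid X receptor (13_Contig_6439), the insect form of which pairs with the ecdysone receptor, fell by 1.55 ± 0.37 from 11.0, 11.0 and 10.3 CPM to 2.44, 4.82 and 3.76 CPM. It did not pass without imago 1 or imago 3. Ecdysone receptor isoform B (13_Contig_7613) had 45.0, 39.8 and 35.6 CPM in the subimago and 32.0, 33.1 and 35.0 CPM in the imago (adjusted p = 0.495). The early gene E75 (13_Contig_1952) had 226, 233 and 239 CPM and then 264, 283 and 271 CPM, which did not overlap (adjusted p = 0.423, and 0.0182 within the 6 libraries alone). Ecdysone 20-monooxygenase (13_Contig_3366), which makes the active hormone, had 115 to 139 CPM in the subimago and 149.8 to 169 CPM in the imago (adjusted p = 0.605, and 0.0226 within the 6 libraries alone). These 3 and FTZ-F1 were picked after their values had been seen, for their place in the cascade.

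For juvenile hormone, 14 of 19 unigenes were tested, 2 rose and 2 fell. That is 14.3% each way, near the background of 12.5% and 10.1%. Methoprene-tolerant (13_Contig_51), the receptor of the hormone, rose from 179, 234 and 210.0 CPM to 322, 346 and 362 CPM (0.73 ± 0.16, adjusted p = 0.00858, and 0.0546 without subimago 1). A farnesoic acid o-methyltransferase-like protein (13_Contig_3744) rose from 43.1, 36.0 and 35.7 CPM to 91.7, 79.4 and 88.4 CPM. The 2 that fell, juvenile hormone esterase (13_Contig_20943) and epoxide hydrolase 1 (13_Contig_8447), break the hormone down. Their adjusted p-values were 0.0429 and 0.0456, and neither passed with DESeq2's size factors or with library totals alone.

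Receptors of neuropeptides and growth factors, with related proteins, were tested as a list of 51 of 53 unigenes, with a median of -0.07. Of these, 5 fell and 2 rose (9.8% and 3.92%, against the background of 10.1% and 12.5%). Neuropeptide GPCR B4 (First_Contig1484) fell from 4.71, 4.95 and 3.82 CPM to 0.649, 0.656 and 0.562 CPM, and its larval means were 1.14 and 0.823 CPM. The subimago was therefore its highest stage. Torso-like protein (13_Contig_14662) fell from 2.88, 1.83 and 2.54 CPM to 0.267, 0.317 and 0.232 CPM.

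Extracellular enzymes were also among the deepest falls. Serine proteinase stubble (13_Contig_8419), which in flies is needed to evert and shape legs and wings, fell from 21.4, 17.0 and 22.9 CPM to 0.0382, 0.0635 and 0.0969 CPM (-8.21 ± 0.6, adjusted p = 1.01e-05). Heparanase (13_Contig_16409), which cuts the sugar chains of matrix proteins, fell from 25.8, 19.6 and 27.0 CPM to 0.0573, 0.169 and 0.0969 CPM. Both ADAMTS 16 unigenes, secreted metalloproteases that were noticed after the values had been seen, fell as well. For 13_Contig_6177 the levels were 164, 143 and 170.0 CPM and then 17.3, 28.5 and 22.7 CPM, against a mean of 20.0 CPM in mature larvae.

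Regulators of wing and limb identity rose more often than they fell. Of 29 tested unigenes (of 35) 8 rose and 2 fell, 27.6% against a background of 12.5%, with a median of 0.39. Vestigial (13_Contig_18470), the wing selector of flies, rose from 5.26, 4.81 and 5.73 CPM to 17.4, 21.9 and 14.8 CPM (1.78 ± 0.26, adjusted p = 0.000698). Distal-less, apterous a, engrailed, Ultrabithorax and frizzled-7 rose by 0.62 to 0.98. The other pair that rose carry the name Patched domain-containing protein 3, which is a relative of the hedgehog receptor and not known as a wing gene. A Delta-like protein (13_Contig_21690) fell from 3.64, 2.29 and 3.33 CPM to 0.248, 0.296 and 0.136 CPM. The number that rose was 3 without subimago 2 or imago 2, 4 without imago 1, and 2 without subimago 3 and imago 2 together.

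The steepest rises among unigenes with a named arthropod hit and at least 5 CPM belonged to 3 secreted or signalling proteins that had also been high in the mature larva. Takeout (13_Contig_8287), of a family of secreted proteins that bind small hydrophobic molecules and in flies take part in feeding and courtship, had 2.88, 1.89 and 1.03 CPM in the subimago and 206, 287 and 197 CPM in the imago. In mature larvae it averaged 346 CPM but ranged from 3.99 to 587 CPM. Its change was 6.89 ± 1.81 with an adjusted p of 0.0227. It did not pass when any 1 of the 6 libraries was left out (adjusted p of 0.0507 to 0.09). All imago libraries lay above all subimago libraries, but that was a condition for naming a steepest rise.

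A chemosensory-binding protein (13_Contig_7993) went from 4.63, 2.74 and 1.03 CPM to 210.4, 338 and 283 CPM, a mean level 99.2 times higher (6.62 ± 1.13, adjusted p = 0.00213). Its mature larvae held 323 to 509.5 CPM. A serine/threonine kinase (13_Contig_6396) went from 4.48, 1.70 and 0.769 CPM to 93.3, 218 and 179 CPM, with 103 to 400.5 CPM in mature larvae. All 3 were thus low in the subimago alone of the 3 later stages, and the kinase and takeout were low in young larvae too. Another unigene named takeout (13_Contig_8886) had 74.3, 34.2 and 32.9 CPM in the subimago and 9.64, 14.9 and 11.6 CPM in the imago (adjusted p = 0.0264). It did not pass with library totals alone (adjusted p = 0.0617), without subimago 1 (0.137), or without imago 1, imago 2 or imago 3 (0.112, 0.0623 and 0.0976).

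Some other rises differed from each other in their larval levels. ABCG4 (13_Contig_7106), a lipid transporter of the ABC family, had 2.67, 0.933 and 1.99 CPM in the subimago and 26.2, 37.7 and 33.1 CPM in the imago, and its larval means were 0.260 and 0.689 CPM. A cytochrome P450 (13_Contig_11610) showed the same order, with 1.01, 1.14 and 0.798 CPM in the subimago, 13.5, 14.2 and 13.3 CPM in the imago and larval means of 0.765 and 0.807 CPM. Acetylcholinesterase (First_Contig179), which clears acetylcholine from synapses, rose from 1.22, 1.10 and 1.03 CPM to 39.3, 25.7 and 24.4 CPM. Its means were 9.80 CPM in young and 7.56 CPM in mature larvae. Heat shock protein 67B2 (13_Contig_10003), of unclear role, rose from 0.862, 0.568 and 0.513 CPM to 12.9, 24.5 and 20.1 CPM. With means of 25.1 CPM in young and 4.67 CPM in mature larvae, it was lowest in the subimago.

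Several enzymes that break down tyrosine and histidine rose. They made up 4 of the 12 steepest of those rises, and the remaining steps were looked up after the values had been seen, so the grouping is a description and not a tested list. In the order of the tyrosine pathway, tyrosine aminotransferase (13_Contig_6703) rose from 6.69, 6.75 and 7.86 CPM to 64.9, 71.0 and 73.3 CPM (3.30 ± 0.19, adjusted p = 5.66e-06). The next enzyme, 4-hydroxyphenylpyruvate dioxygenase (13_Contig_4912), rose from 0.820, 0.831 and 0.598 CPM to 16.2, 17.3 and 18.3 CPM (4.52 ± 0.48, adjusted p = 9.29e-05). Homogentisate 1,2-dioxygenase (13_Contig_8067), which opens the ring, rose from 0.505, 0.527 and 0.370 CPM to 21.2, 26.0 and 19.3 CPM (5.56 ± 0.41, adjusted p = 1.06e-05).

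The replicates of these 3 lay close together in both winged stages. Their young larval means of 64.7, 34.7 and 33.2 CPM were near or above the imago, so the subimago was again the low stage. Tyrosine is also the starting material of the tanning agents, and the decarboxylase and laccase that use its products fell, as given above. Of 2 unigenes named fumarylacetoacetate hydrolase domain-containing protein, 13_Contig_12612 rose by 0.66 ± 0.13, while 13_Contig_4201 had 41.7 to 47.5 CPM and then 34.7 to 39.5 CPM (adjusted p = 0.382). The domain is shared with the last enzyme of the pathway, but these names do not identify that enzyme.

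In the histidine pathway, histidine ammonia-lyase (13_Contig_112), the first step, rose from 79.1, 104 and 105 CPM to 193, 184 and 186 CPM (0.97 ± 0.17, adjusted p = 0.00217). Urocanate hydratase (13_Contig_1018) rose from 2.94, 9.21 and 5.41 CPM to 40.9, 54.5 and 68.0 CPM. The third step, imidazolonepropionase, was met as a pair of unigenes that rose by 4.49 ± 0.6 (First_Contig739) and 4.13 ± 0.39 (13_Contig_21934), the latter from 0.378, 0.365 and 0.256 CPM to 6.51, 6.03 and 5.11 CPM. Here the imago had the highest mean of the 4 stages for every enzyme. Of the tyrosine enzymes, 4-hydroxyphenylpyruvate dioxygenase and homogentisate 1,2-dioxygenase were highest in young larvae. Tyrosine aminotransferase (13_Contig_6703) was slightly higher in the imago, at a mean of 69.7 CPM against 64.7 CPM in young larvae.

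**Figure D3:**
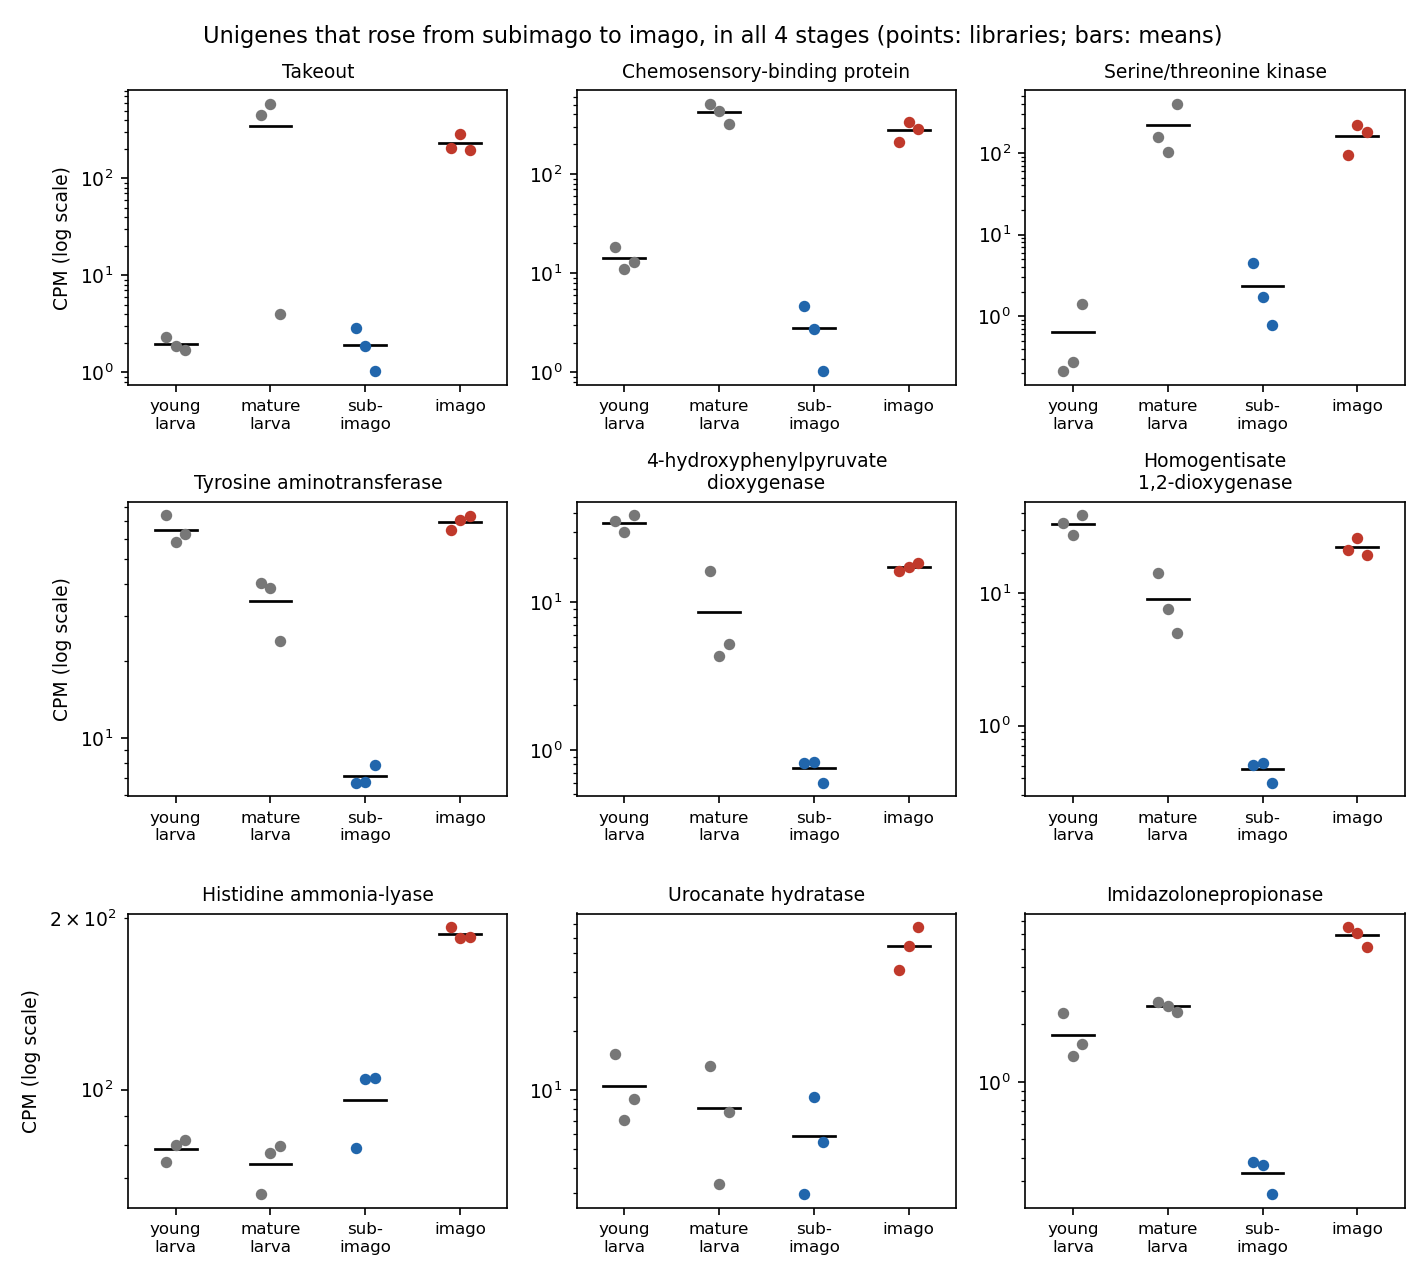
Levels of 9 unigenes that rose in the imago, in CPM on a log scale, in 3 libraries each of young larva, mature larva (grey), subimago (blue) and imago (red), with black bars at the means. The top row was high in mature larvae, except in 1 library of takeout, the middle row holds 3 enzymes of tyrosine breakdown that were also high in young larvae, and the bottom row holds 3 enzymes of histidine breakdown that were highest in the imago.

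Part of the egg and germ line genes rose. Of 41 unigenes for yolk, eggshell and oogenesis 31 were tested, with a median of 0.41. Of these, 10 rose and 1 fell (32.3% and 3.23%, against the background of 12.5% and 10.1%). Their summed level was 2218, 2975 and 3075 CPM in the subimago and 4783, 4585 and 4993 CPM in the imago. Bicaudal C (13_Contig_854), an RNA-binding protein that oocytes need, had 503, 885 and 959 CPM in the subimago and 2201, 2095 and 2310.5 CPM in the imago (1.49 ± 0.32, adjusted p = 0.00746). It averaged 0.500 CPM in young larvae and 527 CPM in mature larvae. Tudor (13_Contig_5178), a protein of germ granules, rose from 3.76, 10.8 and 11.7 CPM to a range of 39.9 to 42.0 CPM.

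Piwi-like proteins, which bind small RNAs against transposons in the germ line, rose in 4 unigenes, 1 of them named hiwi/piwi. One of these (13_Contig_6111) went from 38.1, 59.0 and 60.5 CPM to 159, 157 and 171 CPM. Chorion peroxidase, an eggshell cross-linking enzyme, went both ways. 13_Contig_16163 rose from 6.54, 3.53 and 1.82 CPM to 18.6, 27.5 and 19.4 CPM, whereas 13_Contig_8552 fell from 124, 62.2 and 58.2 CPM to 1.39, 1.14 and 1.22 CPM. The second of them followed the cuticle genes rather than the egg genes, and was high in subimago 1.

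Vitellogenin, oskar and vasa did not pass, while tudor rose, as given above. Vitellogenin (13_Contig_814), the yolk precursor, had 138, 216 and 219.8 CPM in the subimago and 400.2, 229 and 341 CPM in the imago (0.76 ± 0.34, adjusted p = 0.165). The stages did not overlap, and within the 6 libraries alone its adjusted p was 0.0418. Oskar (13_Contig_1990), which founds the germ plasm in flies, had 338, 425 and 417 CPM and then 393, 396 and 408 CPM. Vasa (13_Contig_2231), a germ line RNA helicase, had 273, 327 and 336 CPM and then 261, 268 and 272 CPM. The vitellogenin receptor (13_Contig_5313) rose by 0.95 ± 0.27 (adjusted p = 0.0391, and 0.152 without subimago 1). It also did not pass without subimago 3 or without any 1 of the imago libraries. Vitellogenin, oskar, vasa and the receptor were picked after their values had been seen. Without subimago 1 or imago 3, 5 of the list rose, and without imago 1 or imago 2, 6 did.

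Genes of DNA replication and cell division rose in 23 of 118 tested unigenes and fell in 6, with a median of 0.28. These are 19.5% and 5.08%, against the background of 12.5% and 10.1%. Ribonucleoside-diphosphate reductase (13_Contig_8070), which makes the DNA building blocks, rose from 20.8, 29.8 and 31.7 CPM to 102, 96.2 and 95.6 CPM (1.84 ± 0.23, adjusted p = 0.000237). PCNA (13_Contig_3935), the sliding clamp of the replication fork, rose from 54.4, 71.1 and 73.6 CPM to 111, 109 and 114 CPM. A DNA polymerase (13_Contig_10460) fell from 19.2, 18.5 and 17.7 CPM to 10.9, 8.82 and 8.72 CPM, but not when scaled by library totals alone (adjusted p = 0.0862). No member fell with library totals alone. The number that rose was 8 without subimago 1, 11 without imago 1, 13 without imago 2 and 12 without imago 3.

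For sperm and axoneme genes 3 of 46 tested unigenes rose and 1 fell, with a median of -0.02, or 6.52% and 2.17% against the background of 12.5% and 10.1%. Without subimago 1, 1 rose. Intraflagellar transport protein 140 (13_Contig_1235) rose from 267, 381 and 381 CPM to 669, 604 and 669 CPM, with an adjusted p of 0.0503 without subimago 1. A ciliary dynein beta chain (13_Contig_5993) fell from 53.6, 39.8 and 48.0 CPM to 12.7, 19.5 and 16.6 CPM.

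Ribosomal protein transcripts included many falls, and proteasome transcripts many rises. Cytosolic ribosomal proteins fell in 47 of 107 tested unigenes (of 221) and rose in 0, or in 1 at an unadjusted p under 0.05. The falls are 43.9% of the list, against the background of 10.1%, with a median of -0.61. With DESeq2's size factors 1 rose and 43 fell, and with library totals alone 29 fell. Their summed level was 5194, 4925 and 5149 CPM in the subimago and 3051, 3049 and 3165 CPM in the imago, down from 21973 to 25162 CPM in young larvae and 10099 to 12294 CPM in mature larvae. Ribosomal protein L5 (13_Contig_5366) fell furthest, from 127, 110.4 and 106 CPM to 17.5, 19.1 and 19.5 CPM (-2.61 ± 0.17, adjusted p = 6.47e-06). The 40S ribosomal protein S20 (13_Contig_3633) fell from 95.4, 88.9 and 92.8 CPM to 35.9, 39.5 and 39.6 CPM. The replicates of both lay within a narrow range in each stage.

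The proteasome, the machine that degrades tagged proteins, rose in 15 of 37 tested unigenes and fell in 1, with a median of 0.43. These are 40.5% and 2.7%, against the background of 12.5% and 10.1%. A beta type subunit of its core (13_Contig_10159) rose from 20.8, 27.6 and 30.1 CPM to 63.7, 60.7 and 61.1 CPM (1.24 ± 0.19, adjusted p = 0.00093). Rpt5 of its regulatory cap (13_Contig_4635) rose from 33.6, 38.4 and 38.9 CPM to 83.5, 80.2 and 82.9 CPM. Without subimago 1, 10 of the list rose. Of 48 tested unigenes for cell death and autophagy 10 rose and 1 fell (20.8% and 2.08%). Cathepsin l (13_Contig_2292), a lysosomal protease, rose from 53.6, 43.8 and 48.8 CPM to 177, 196 and 185 CPM. Autophagy-related protein 2 (13_Contig_8941), which feeds lipid to the growing autophagosome, rose from 18.1, 25.8 and 23.8 CPM to 52.9, 54.5 and 60.1 CPM.

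**Figure D4:**
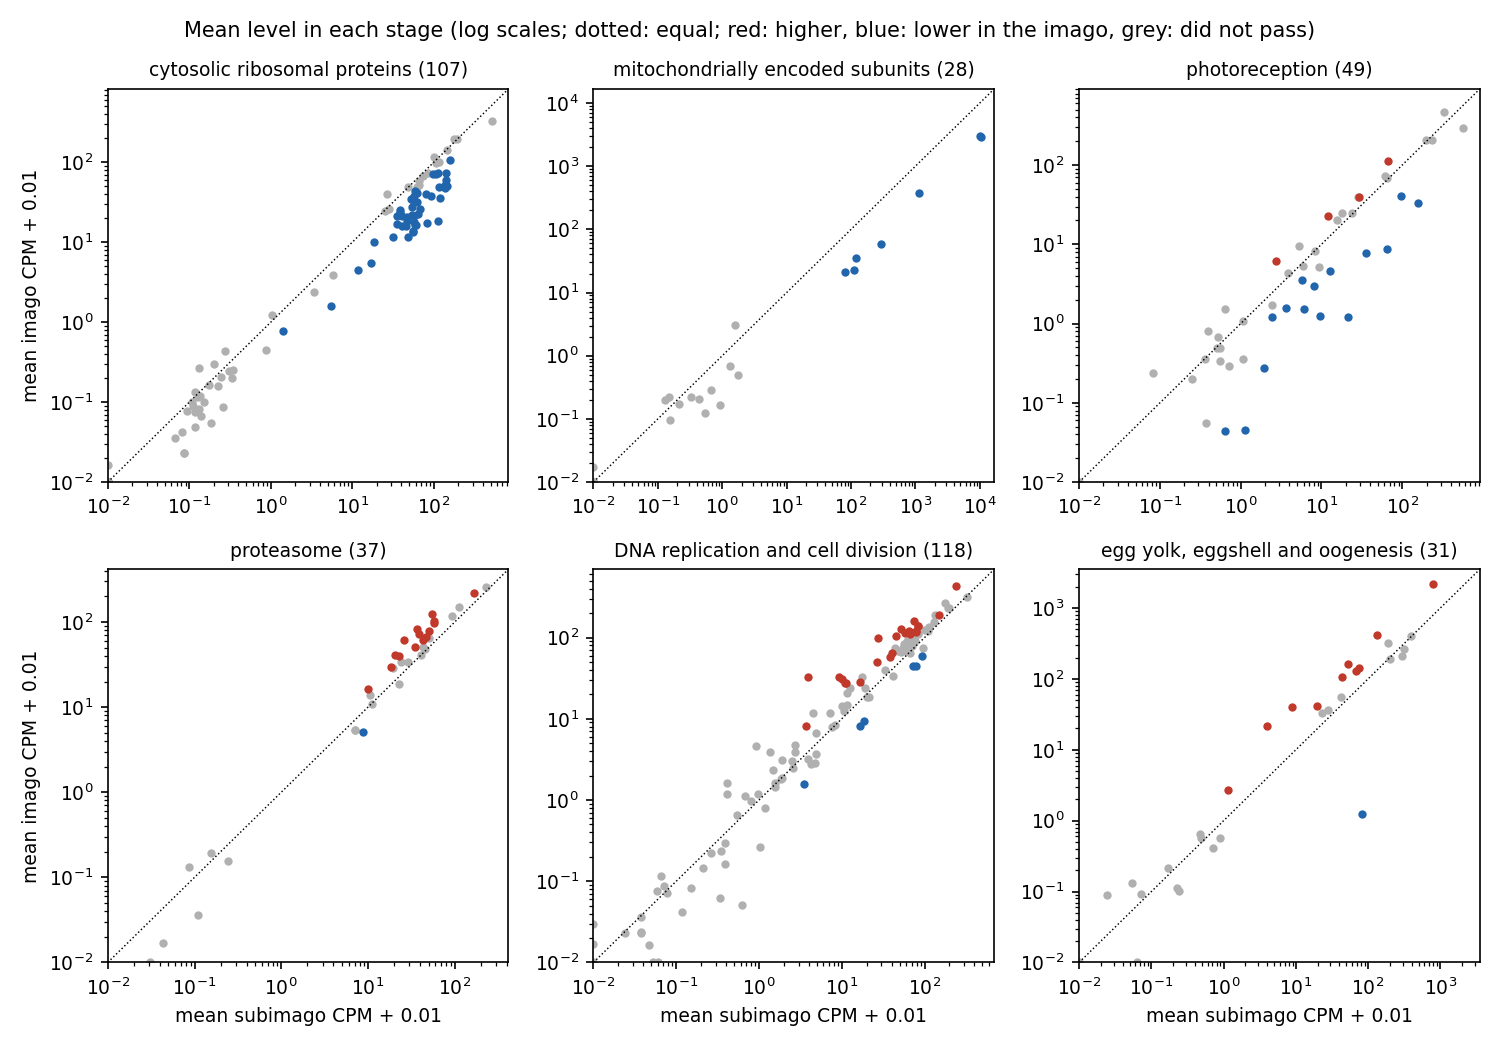
Each point is a tested unigene, placed by its mean level over the 3 subimago libraries (horizontal) and the 3 imago libraries (vertical), both as CPM + 0.01 on log scales, in 6 gene lists with the number tested. Ribosomal and mitochondrially encoded unigenes that passed lie below the dotted line of equality, those of the proteasome lie above it except 1, and photoreception, replication and egg genes have members on both sides.

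The abundant transcripts of the mitochondrial genome fell. Among 78 tested unigenes of oxidative phosphorylation 11 fell and 2 rose (14.1% and 2.56%, against the background of 10.1% and 12.5%). Of the 11 that fell, 7 were subunits that the mitochondrial genome encodes. These 7 fell by up to 2.31 on the log2 scale, and the other 21 of the 28 mitochondrially encoded unigenes tested had under 4 CPM in both winged stages. Cytochrome c oxidase subunit 1 (Second_Contig6) went from 12146, 8065 and 10924 CPM to 3125, 2738 and 2848 CPM (-1.84 ± 0.23, adjusted p = 0.000253). Cytochrome b (First_Contig532) went from 10799.6, 7335 and 11553 CPM to 3023, 3032 and 2848 CPM, with an adjusted p of 0.0586 without subimago 3 and imago 2 together. Subimago 2 was the lowest subimago library for both.

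Of 50 nuclear unigenes for the respiratory chain 4 fell and 2 rose, or 8% and 4% against the background of 10.1% and 12.5%, with a median of -0.02. The deepest fall was that of NADH dehydrogenase 1 beta subcomplex subunit 11 (13_Contig_2010), from 659, 411 and 598 CPM to 35.5, 35.6 and 32.4 CPM (-4.01 ± 0.39, adjusted p = 6.52e-05). Its larval means of 144 and 101 CPM lay between the winged stages. ATP synthase subunit alpha (13_Contig_574) rose from 159, 186 and 181 CPM to 334, 315 and 333 CPM. Without subimago 1 neither of the 2 rises passed.

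The summed level of muscle genes in larvae was 38950.2 to 54162 CPM in young and 4589.5 to 14239.7 CPM in mature larvae. Of 60 tested unigenes 4 fell and 2 rose (6.67% and 3.33%, against the background of 10.1% and 12.5%). The summed level was 2789, 2104 and 2269.8 CPM in the subimago and 2354, 2727 and 2601 CPM in the imago. Titin (13_Contig_6778), the elastic filament of the sarcomere, fell from 109, 91.0 and 107 CPM to 35.5, 58.6 and 58.8 CPM. Troponin C (13_Contig_1870), its calcium switch, rose from 25.4, 18.5 and 20.2 CPM to 56.6, 36.3 and 50.0 CPM. Neither titin nor troponin C passed with library totals alone, without a filter, or without subimago 3 or imago 1. Without subimago 3 and imago 2 together 0 muscle genes passed.

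In glycolysis and the citrate cycle 7 of 64 tested unigenes rose and 5 fell, 10.9% and 7.81% against the background of 12.5% and 10.1%. Phosphoglycerate kinase (13_Contig_1917) rose from 41.5, 62.0 and 59.8 CPM to 208, 197 and 200.3 CPM (1.89 ± 0.27, adjusted p = 0.000611). In fatty acid metabolism 15 of 89 rose and 10 fell, 16.9% and 11.2%, which is near the background. Without subimago 1, 7 rose, and without imago 2, 9 did. A fatty acyl-CoA reductase (13_Contig_6103), of the family that makes alcohols for surface waxes, fell from 137, 84.1 and 104 CPM to 7.48, 6.52 and 5.04 CPM (-4.10 ± 0.24, adjusted p = 5.66e-06). An elongase of very long chain fatty acids (13_Contig_11268) rose from 3.64, 2.72 and 2.79 CPM to 35.3, 37.0 and 35.0 CPM (3.55 ± 0.28, adjusted p = 1.64e-05). Among storage and lipid transport proteins 5 of 25 fell and 1 rose (20% and 4%), but 1 to 2 fell and none rose when any 1 library was left out.

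Several light-sensing genes fell. Of 49 tested photoreception unigenes 15 fell and 4 rose, with a median of -0.16. These are 30.6% and 8.16%, against the background of 10.1% and 12.5%. The summed level of the list overlapped between the stages. It was 2484, 2152 and 1721 CPM in the subimago and 1710, 1796 and 1807 CPM in the imago. Chaoptin (13_Contig_2991), an adhesion protein of photoreceptor cells, fell from 79.2, 54.6 and 59.6 CPM to 7.64, 10.9 and 7.83 CPM (-2.88 ± 0.5, adjusted p = 0.0023). Blue-sensitive opsin (13_Contig_20950) fell from 1.83, 1.95 and 1.99 CPM to 0.191, 0.275 and 0.329 CPM. Arrestin1 (13_Contig_677), which shuts off the light response, had 249, 155 and 66.4 CPM in the subimago and 21.1, 51.2 and 27.7 CPM in the imago. Its subimago libraries differed among themselves, and it did not pass without subimago 1, imago 1 or imago 3. Another chaoptin (13_Contig_5239) rose by 0.91. The list also holds retinol and retinal dehydrogenases, which act in other tissues too, such as retinal dehydrogenase 1 (13_Contig_3957), which fell by 1.23.

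Of 29 tested chemoreception unigenes 3 rose and 4 fell (10.3% and 13.8%), near the background. An odorant receptor (13_Contig_2497) changed by -3.96 ± 0.51, and Chemosensory protein 2 (13_Contig_5261), a small secreted carrier, from 84.4, 57.9 and 65.6 CPM to 12.0, 11.4 and 13.1 CPM. Of 81 unigenes for neurotransmitter receptors and synapses 15 fell and 7 rose (18.5% and 8.64%, against the background of 10.1% and 12.5%). A metabotropic glutamate receptor (13_Contig_203) fell from 86.2, 57.6 and 56.0 CPM to 11.6, 8.97 and 10.5 CPM, and a serotonin receptor (13_Contig_19833) from 7.88, 7.14 and 4.42 CPM to 1.15, 0.994 and 0.794 CPM. Of the clock genes, unigenes named Period, Timeless, Cryptochrome and Cryptochrome-1 did not pass, CLOCK rose by 0.57 (First_Contig1449, adjusted p = 0.0491), and a photolyase/cryptochrome rose by 0.85 (13_Contig_5487, adjusted p = 0.0272). The latter did not pass without subimago 1 (adjusted p = 0.135), subimago 2 (0.0753), imago 2 (0.0963) or imago 3 (0.0913), and the takeout and clock list, with 4 rises in all, had 1 to 3 when 1 library was left out. Without subimago 1 photoreception had 9 falls, and without imago 3 the neurotransmitter list had 8.

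The remaining lists went both ways and are read against the background of 10.1% lower and 12.5% higher. Digestive enzymes fell in 40 and rose in 22 of 294 tested unigenes (13.6% and 7.48%), and the list includes proteases of other roles such as stubble. Trypsin-7 (13_Contig_2864) fell from 159, 119 and 138 CPM to 26.2, 23.2 and 24.4 CPM. Detoxification enzymes rose in 28 and fell in 20 of 220, and these shares of 12.7% and 9.09% are those of the background. Ion pumps and transporters fell in 19 and rose in 11 of 109 (17.4% and 10.1%), among them the beta-2 subunit of the sodium pump (13_Contig_563), which fell from 281, 239 and 213 CPM to 99.3, 102 and 87.1 CPM. Aquaporin AQPcic (13_Contig_1746), a water channel, rose from 39.4, 30.4 and 29.3 CPM to 77.3, 92.2 and 82.7 CPM.

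Heat shock proteins and chaperones rose in 13 and fell in 10 of 81, and these shares of 16% and 12.3% lie near the background. The T-complex subunit epsilon (13_Contig_830), part of the chaperonin that folds actin and tubulin, fell from 181, 204 and 189 CPM to 92.5, 112 and 115 CPM. Immune genes fell in 9 and rose in 1 of 62 (14.5% and 1.61%). Spaetzle (13_Contig_12039), the ligand of the Toll receptor, fell from 39.4, 23.0 and 26.3 CPM to 0.496, 0.508 and 0.0775 CPM (-6.35 ± 1.11, adjusted p = 0.00247). Without subimago 1 the immune falls were 4, the digestive falls 25 and the heat shock rises 7. Leaving out other single libraries also moved some of these counts by over 1.5 times. A list of algal or plant names, meant as a sign of gut content, had 2 tested unigenes, with changes of 0.03 and 0.19. Neither passed at an unadjusted p under 0.05. The first (13_Contig_11090) is named for an enzyme of methionine salvage and is no sign of gut content. The second (13_Contig_126773) had 52 reads over the subimago and 69 reads over the imago libraries.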

How the data were processed

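RNA of whole bodies was sequenced with a TruSeq kit as paired reads on an Illumina HiSeq instrument, and de novo assembly used CLC and then CAP3, per the labels' protocols. The authors deposited read counts and RPKM values for each unigene and library; DESeq is named in the submitters' processing notes. No source used here gives the mapper, counting settings or strand use, so overlapping or near-identical transcripts are uncertain. The deposited RPKM equals count divided by length and library total, and was not used for tests. Columns were matched to samples by the number in their labels. Counts of 15 libraries in 5 groups were fitted with edgeR 4.0.16 (filterByExpr, TMM, robust quasi-likelihood test, 10 residual degrees of freedom), adjusted by Benjamini-Hochberg over 34131 unigenes, and called at 0.05. On simulated data, 67 of 67 changes of 4-fold, 66 of 66 of 8-fold and 43 of 67 of 2-fold were recovered, with 4 false calls. The simulation gave every unigene the same spread and changed only unigenes with many reads. These shares therefore do not hold for real unigenes with few reads or a wider spread. Named genes are the 12 steepest rises and falls with a named arthropod hit, at least 5 CPM and non-overlapping libraries, and up to 4 members of each list by adjusted p. All other genes named were picked after their values were seen. Members and lists were chosen with earlier results of these data known. Counting intervals are exact, at 95%, and cover counting error only. Sequences were not analysed here.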

Additional observations from a re-analysis of the deposited data

How the results depend on the processing

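The comparison was repeated under 18 alternatives and 2 more added after the data had been seen, and no called unigene of the main comparison changed sign in any. The numbers of rises and falls were 1685 and 1357. They were 2553 rises with DESeq2 size factors, 786 falls with library totals, 3208 rises with DESeq2's Wald test, 2549 rises with a stricter filter, 3294 and 2059 in the 6 libraries alone, 844 falls without subimago 3 and imago 2 together, and 967 and 652 with 1 unigene per annotation text. Leaving out 1 library gave 735 to 1672 rises and 863 to 1112 falls. The cause was not tested, apart from the smaller number of samples or unigenes that some alternatives hold by construction.

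List counts moved as follows. With DESeq2 size factors 0 juvenile hormone unigenes fell, 4 muscle and 6 sperm unigenes rose. With library totals 0 tanning and 1 muscle unigene rose, 0 juvenile hormone and 1 muscle unigene fell. With the Wald test 7 chitin, 2 tanning, 6 muscle, 8 sperm and 8 oxidative phosphorylation unigenes rose. Without a filter 2 chitin, 0 ecdysteroid and 0 muscle unigenes rose, and 1 Osiris, 1 juvenile hormone, 1 muscle and 2 egg unigenes fell, while the stricter filter left 1 juvenile hormone fall. In the 6 libraries alone 3 tanning, 3 ecdysteroid, 10 muscle, 5 sperm and 7 oxidative phosphorylation unigenes rose, and 5 ecdysteroid, 9 muscle, 2 egg and 3 sperm unigenes fell. Without mature larva 1, 3 tanning and 4 muscle unigenes rose, and 4 ecdysteroid and 2 egg unigenes fell. With animal hits only in the fit, 2 sperm unigenes fell. Without subimago 3 and imago 2 together 1 chitin, 0 ecdysteroid, 0 muscle, 6 egg and 1 oxidative phosphorylation unigene rose, and 3 tanning, 1 Osiris, 0 juvenile hormone and 0 muscle unigenes fell. With 1 unigene per text 15 cuticular, 1 juvenile hormone and 2 muscle unigenes fell, and 5 egg unigenes rose.

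Leaving out 1 library gave falls of 21 to 26 for cuticular proteins, 15 to 18 for chitin, 5 to 7 for tanning, 1 to 2 for Osiris, 1 to 3 for ecdysteroids, 0 to 1 for juvenile hormone, 0 to 5 for muscle, 1 to 1 for egg and sperm, and 9 to 12 for oxidative phosphorylation. Rises were 0 to 0 for cuticular proteins and Osiris, 1 to 4 for chitin, 0 to 1 for tanning, ecdysteroids and muscle, 1 to 2 for juvenile hormone, 5 to 8 for egg, 1 to 3 for sperm and 0 to 2 for oxidative phosphorylation.

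Deviations of same-numbered subimago and imago libraries from their stage means correlated at -0.0754, 0.0911 and 0.116. Those of differently numbered libraries correlated at -0.164 to 0.0846. With 3 libraries per stage these values cannot decide whether libraries were paired. The replicate block gave 1519 rises and 1332 falls, with 0 ecdysteroid and 1 muscle rise, and 1 juvenile hormone and 2 egg falls. The replicate block in 6 libraries gave 2819 rises, with 3 tanning, 8 muscle, 5 sperm and 4 oxidative phosphorylation rises, and 5 ecdysteroid, 7 muscle and 2 egg falls. Of the uncalled genes named, 13_Contig_11090, an enzyme of methionine salvage in the algal list, changed sign to -0.04 without a filter and, over the fits without 1 library, ran from -0.10 (imago 1) to 0.14 (imago 2). Oskar (13_Contig_1990) changed to -0.05 without a filter and ran from -0.07 (without subimago 1) to 0.08 (without subimago 2). Before names of mitochondrial ribosomal proteins and other proteins were taken out, the ribosomal list had 53 falls and 2 rises in 139 tested unigenes.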

Other observations

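Unigenes chosen for a large change were placed among the 4 stages as a description only, since the choice itself sets the subimago apart from the imago. Of the 337 that fell by 8-fold or more, 87 had a higher mean level in the young larva than in any other stage and 47 in the mature larva, which leaves 203 for the subimago. Of the 70 that rose by 8-fold or more, 30 were highest in the young larva, 7 in the mature larva and 33 in the imago.

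A pair of unigenes carried the names of seminal fluid proteins of another insect. Seminal fluid protein CSSFP033 (13_Contig_9399) fell from 107, 69.6 and 93.1 CPM to 0, 0.487 and 0.0775 CPM (-8.91 ± 1.38, adjusted p = 0.00115). CSSFP002 (13_Contig_5241), noticed after its values were seen, fell from 5.61, 5.92 and 4.59 CPM to 0.248, 0.0423 and 0.116 CPM.

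The largest fitted rise of any called animal-hit unigene was that of an uncharacterized protein (13_Contig_70790) with 0 reads in the subimago libraries and 734, 11876 and 4244 reads in the imago libraries. Against a floor of 3 reads over the subimago libraries this is at least 4901-fold higher, with an adjusted p of 0.0471 that does not pass when any 1 library is left out. An RNA-directed RNA polymerase L (13_Contig_71122) followed, with 0.0210, 0 and 0 CPM and then 2.18, 7.32 and 2.75 CPM (adjusted p = 0.0162). It did not pass without subimago 1 (adjusted p = 0.0824), subimago 2 (0.0736) or subimago 3 (0.0632), or without a filter (0.0699). Both unigenes count as animal only by the species of their closest protein, and whether they are mayfly genes was not tested.

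The unigene with the most reads had no database hit (First_Contig81). It stood at 12.8, 2609 and 264075 CPM in the subimago, 46.8, 182271 and 16.7 CPM in the imago, and at a mean of 9046 CPM in mature larvae.

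Of 17765 tested unigenes with no database hit, 600 rose and 1785 fell. Among all 34131 tested unigenes, 2297 rose and 3160 fell (6.73% and 9.26%).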
